A study of Mus musculus with 4 samples.

Results

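The cells described here were 1062 astrocytes of the uninjured mouse spinal cord that held at least 1 UMI (unique molecular identifier, 1 captured RNA molecule) of 3 or more of 6 genes: Hsd11b1, Car14, C1qtnf4, Chil1, Igfbp2 and Gpr37. They were drawn from a gate of 2898 astrocytes of the same library, of which they made up 36.6% (95% Clopper-Pearson interval 34.9 to 38.4%, counting error only). The gate required over 500 but under 50000 UMIs of genes per cell, a UMI in at least 2 of the 4 astrocyte genes Aqp4, Slc1a2, Gja1 and Aldh1l1, no UMI of Cldn5, Pdgfra, Col3a1 or Gfap, and at most 2 UMIs summed over the neuronal genes Nefl, Nefm and Snap25. The 1062 cells were 25.5% of the 4159 cells of the uninjured library, in a series of 5078 cells from 2 libraries. They are called program astrocytes below, and the other 1836 gated cells, with under 3 of the 6 genes, the remaining astrocytes.

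The series measured single-cell RNA and enhancer barcodes in tdTomato+ cells sorted from the spinal cord of Cx30-tdTomato mice, in which tamoxifen-induced recombination driven by the gap junction gene Cx30 labels astrocytes. Animals of both conditions, uninjured and injured, received intravenously a pool of adeno-associated viruses (AAV) in which 23 enhancers, newly selected ones and known astrocyte enhancers, each drive a barcoded reporter. Tissue was a 5 mm segment around a contusion, 3 days after injury, or the same level of uninjured cords. By the labels, each condition pooled 1 to 2 animals per sex into 1 library. The uninjured library went against that label: 2770 of its 4159 cells held a UMI of a Y-linked gene and none of Xist, and 2 held Xist without a Y-linked UMI. In the injured library, 328 of 919 cells were scored male and 277 female in this way. Cells of 1 library are not replicates, so no test between groups of cells or between conditions was possible, and every interval below covers counting error only.

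Astrocytes take up glutamate and potassium, couple to each other through gap junctions and cover vessels with endfeet rich in the water channel Aqp4. They differ between grey and white matter and along the dorsoventral axis of the cord, where progenitor domains are set by transcription factors such as Pax3 and Zic1 dorsally and Nkx6-1 and Olig2 ventrally. The 6 genes share no single pathway. Hsd11b1 encodes the enzyme that regenerates active glucocorticoid from its inactive form, and Car14 a membrane-bound carbonic anhydrase. Igfbp2 binds insulin-like growth factors, Chil1 is a secreted chitinase-like protein without enzyme activity, C1qtnf4 is a secreted protein with C1q domains and Gpr37 is a G protein-coupled receptor.

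The promoters of the program genes are shown because the 6 genes were seen together in cells, as described below. In the gene annotation for GRCm38, Hsd11b1, Chil1 and Igfbp2 lie on chromosome 1, Car14 on chromosome 3, C1qtnf4 on chromosome 2 and Gpr37 on chromosome 6. RefSeq promoters (GRCm38.p6, 300 bases around a start site) matched 5 of the 6 genes by symbol, with 2 start sites for Igfbp2. The windows are chr1:193242311-193242610 on the minus strand for Hsd11b1, chr1:134181906-134182205 on the plus strand for Chil1, chr1:72824230-72824529 on the plus strand for the upstream start of Igfbp2 and chr3:95904636-95904935 on the minus strand for Car14. Capitals mark the E box CANNTG, the letters bound by basic helix-loop-helix factors such as Olig1 and Olig2, which reads the same on both strands.
Hsd11b1: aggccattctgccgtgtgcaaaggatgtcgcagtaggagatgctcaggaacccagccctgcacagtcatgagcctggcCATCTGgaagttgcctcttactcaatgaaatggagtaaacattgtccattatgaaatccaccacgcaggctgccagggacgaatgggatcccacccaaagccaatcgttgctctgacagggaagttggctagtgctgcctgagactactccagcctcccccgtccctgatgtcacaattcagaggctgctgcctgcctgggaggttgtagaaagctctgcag
Chil1: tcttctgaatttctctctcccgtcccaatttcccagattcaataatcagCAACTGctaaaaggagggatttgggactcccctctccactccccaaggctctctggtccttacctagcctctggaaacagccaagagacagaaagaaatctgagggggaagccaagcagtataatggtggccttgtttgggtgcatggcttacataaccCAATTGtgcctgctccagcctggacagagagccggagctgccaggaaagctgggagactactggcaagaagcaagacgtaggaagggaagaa
Igfbp2: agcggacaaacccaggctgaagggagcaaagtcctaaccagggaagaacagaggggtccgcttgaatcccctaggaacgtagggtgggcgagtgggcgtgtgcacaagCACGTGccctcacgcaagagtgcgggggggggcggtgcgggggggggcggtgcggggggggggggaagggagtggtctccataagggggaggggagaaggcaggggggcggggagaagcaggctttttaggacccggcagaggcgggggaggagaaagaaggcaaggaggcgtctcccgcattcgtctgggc
Car14: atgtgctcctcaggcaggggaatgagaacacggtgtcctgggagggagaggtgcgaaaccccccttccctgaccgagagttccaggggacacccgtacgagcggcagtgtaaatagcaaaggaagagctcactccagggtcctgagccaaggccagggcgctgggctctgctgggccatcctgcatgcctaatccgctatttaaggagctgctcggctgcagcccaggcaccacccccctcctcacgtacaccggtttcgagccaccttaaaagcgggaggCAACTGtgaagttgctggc
An E box was present in all 6 windows, Gpr37 included, and in 72.3% of 32851 mouse promoters of the same length. The glucocorticoid receptor hexamer AGAACA, on either strand, was present in the Igfbp2 and Car14 windows shown and in 19.0% of all promoters. TATAAA was in none of the 6 windows and in 13.6% of all promoters. These matches are letters in a window and describe no binding.

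All 4 astrocyte genes of the gate differed by under 1.5-fold between program astrocytes and the remaining astrocytes. Levels are given as CPM, the UMIs of a gene in the summed cells per 1000000 gene UMIs. Aqp4 stood at 1415 CPM in program astrocytes and 1357 CPM in the remaining astrocytes. Slc1a2, the main glutamate transporter, stood at 4490 and 4726 CPM, Gja1, a gap junction protein, at 1449 and 1438 CPM, and Aldh1l1 at 171 and 206 CPM. Program astrocytes carried more RNA, which the rule favours, because a deeper cell has more chances of showing 3 genes. Their median was 4226 gene UMIs (987 to 15921), against 2727 in the remaining astrocytes. They showed a median of 2018 genes against 1429, and of 1156 against 1137 once each cell was thinned to 2000 UMIs (1006 and 1297 cells; 56 and 539 shallower cells were left out). Mitochondrial genes took 5.98% of UMIs in program astrocytes and 6.90% in the remaining astrocytes. Of the 7 cell barcodes that both libraries shared, 0 belonged to program astrocytes.

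Markers of other cell types were low in both groups. Summed over 8 oligodendrocyte markers, the level was 342 CPM in program astrocytes and 265 CPM in the remaining astrocytes. The 8 microglia markers summed to 94.0 and 121 CPM, the 6 endothelial markers to 1.44 and 1.97 CPM, the 5 oligodendrocyte progenitor markers to 1.23 and 2.51 CPM and the 6 ependymal markers to 54.6 and 70.3 CPM. The 8 neuron markers summed to 138 and 186 CPM, the 5 fibroblast markers to 80.1 and 94.3 CPM, and the 5 mural markers to 38 and 51.8 CPM. Cldn5, Pdgfra and Col3a1 were at 0 by the gate. The part of other cells' RNA in the gene differences below was not tested.

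Cells of the gate held anything from none to all of the 6 genes. Each gene was missed in many program astrocytes at this depth, so these counts cannot tell a graded program from one that is on or off. Of the 2898 gated cells, 576 held none of the 6 genes, 648 held 1, 612 held 2, 492 held 3, 330 held 4, 182 held 5 and 58 held all 6. Median depth went from 2064 UMIs in cells with none to 5410 in cells with all 6. At 2000 UMIs a cell, 588 of 2303 cells held none, 715 held 1, 502 held 2, 309 held 3, 140 held 4, 43 held 5 and 6 held 6. All 42 possible combinations of 3 or more genes occurred among program astrocytes. The commonest was Hsd11b1, Car14 and Igfbp2 without the other 3, in 119 cells (11.2% of program astrocytes), and all 6 genes were in 58 cells (5.46%). Program astrocytes held 3 to 40 UMIs of the 6 genes with a median of 6, and the remaining astrocytes 0 to 10 with a median of 1.

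The values of the 6 genes chose the cells and are given as a description. Hsd11b1 stood at 421 CPM in program astrocytes and 132 CPM in the remaining astrocytes, and was seen in 55.4% and 20.3% of cells at 2000 UMIs. Car14 stood at 389 and 123 CPM (53.8% and 18.7% of cells) and Igfbp2 at 438 and 102 CPM (55.8% and 15.1%). These 3 genes were seen in the majority of program astrocytes at that depth, and the next 3 in fewer. Chil1 stood at 193 and 51.4 CPM (32.5% and 10.0%), Gpr37 at 179 and 48 CPM (33.7% and 8.71%), and C1qtnf4 at 96.7 and 13.4 CPM (15.8% and 2.16%). Just inside the rule, the 492 cells with 3 genes held 313 CPM of Hsd11b1 and 297 CPM of Igfbp2. Just outside it, the 612 cells with 2 genes held 225 and 171 CPM.

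RNA that leaks from broken cells gives UMIs in cells that do not express a gene, so the 6 genes were also read in 30 cells of the uninjured library with 3 or more UMIs of the microglia genes C1qa and C1qb (median 3440 gene UMIs). Hsd11b1, Car14, Chil1, Gpr37 and C1qtnf4 were seen in 0 of these 30, a count that leaves room for up to 11.6% (upper 95% Clopper-Pearson limit), and Igfbp2 in 3 of them (10.0%). Without thinning, the remaining astrocytes showed Hsd11b1 in 27.1%, Car14 in 25.9%, Igfbp2 in 20.6%, Chil1 in 12.6% and Gpr37 in 11.9% of cells, the last 2 close to that limit. C1qtnf4, in 3.70% of the remaining astrocytes and 29.0% of program astrocytes, was seen in 6.80% of the 147 cells with no UMI of the 4 astrocyte genes (median 2024 gene UMIs), and stood at 32.6 CPM there, above the 13.4 CPM of the remaining astrocytes. In the same 147 cells Hsd11b1 was seen in 10.9% and Igfbp2 in 10.2%, and the other 3 genes in 0.680 to 1.36%.

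Each gene was higher in cells chosen by the other genes alone. When a cell had to hold 3 of the other 5 genes, C1qtnf4 was 3.42-fold higher in the chosen cells (95% interval 2.83 to 4.17), at 86.1 against 25.2 CPM. Igfbp2 was 2.57-fold higher (2.38 to 2.77), Hsd11b1 2.13-fold (1.97 to 2.29), Car14 1.95-fold (1.81 to 2.11), Chil1 1.90-fold (1.70 to 2.13) and Gpr37 1.82-fold (1.62 to 2.05). These are below the ratios under the rule itself, which run from 3.15 for Car14 to 7.19 for C1qtnf4. In a second reading, a random 50% of each cell's UMIs, those of the gene itself included, chose the cells and the others were read. The ratios were then 3.88 for C1qtnf4, 2.82 for Igfbp2, 2.15 for Hsd11b1, 1.98 for Chil1, 1.91 for Car14 and 1.5 for Gpr37 (1.25 to 1.79).

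**Figure D1:**
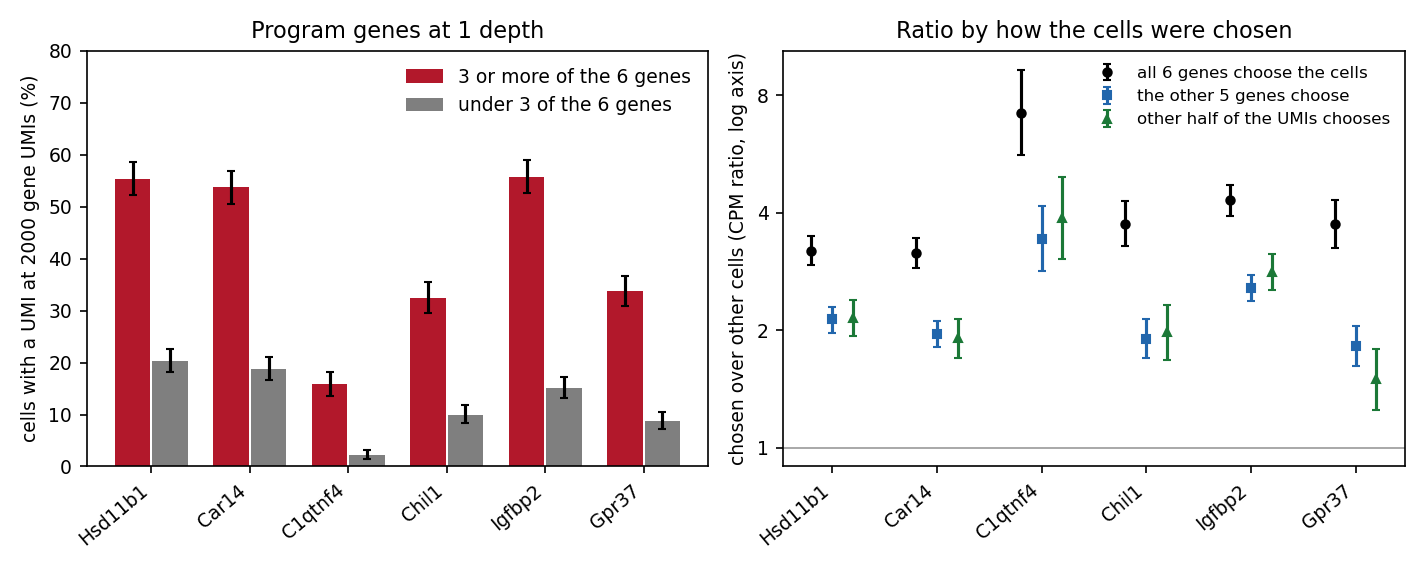
Left, share of cells with a UMI of each program gene after thinning to 2000 gene UMIs, in program astrocytes (1006 cells, red) and the remaining astrocytes (1297 cells, grey), with 95% Clopper-Pearson intervals. Right, ratio of CPM between chosen and other cells on a log axis, with 95% intervals. The cells were chosen by all 6 genes, by the other 5 genes or by a random 50% of the UMIs that is not read. The lowest ratio is 1.5, for Gpr37 with the random 50%.

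The 6 genes were seen together pair by pair at 1 depth. At 2000 UMIs, in all 15 pairs, a gene was seen in a larger share of cells with the other gene than without it. Ratios of these shares ran from 1.38 (Car14 and Chil1) to 2.09 (Car14 and C1qtnf4), and intervals did not overlap in 15 of 15. The 6 genes were chosen with earlier results of these data known, and pairs of other genes were not read. These counts therefore have no background share beside them. Igfbp2 was seen in 45.8% of the 784 cells with Car14 and in 26.2% of the 1519 cells without it. The ratio was 1.47 for Hsd11b1 and Car14 and 1.78 for Hsd11b1 and Gpr37. The association in single cells was weak throughout, with phi coefficients of 0.06 to 0.20 over the 2303 cells.

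Genes that the rule did not use also differed between program and remaining astrocytes. A gene is called higher or lower when its log2 ratio of CPM (1 CPM added to each side) lies beyond 1.5-fold and its 95% interval excludes no change. Of 6788 genes at 20 CPM or more over the gate, 96 were called higher in program astrocytes (1.41%) and 119 lower (1.75%), and the median log2 ratio was -0.00. When the remaining astrocytes were weighted to the depth of the program astrocytes, 192 were higher and 146 lower, among them 88 and 109 of the first calls. That moves the share of higher genes among the calls from 44.7% to 56.8%.

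The 10 genes with the highest ratios are the genes whose pattern was most like the program. Stk32a, a serine/threonine kinase, led with 150 CPM against 50.5 CPM, a log2 ratio of 1.56. Slit2, a secreted axon guidance protein, stood at 58.7 against 20.1 CPM (1.5), and Gng11, a G protein gamma subunit, at 137 against 48.6 CPM (1.47). Pmepa1, a target of TGF-beta, was at 85.2 against 32.4 CPM (1.37). These genes were minority genes per cell: Gng11 was seen in 22.4% of program astrocytes and 8.79% of the remaining astrocytes at 2000 UMIs. Hpgd, which inactivates prostaglandins, was at 89.1 against 34.6 CPM (1.34), and the long non-coding RNA A730020M07Rik at 31.4 against 12 CPM (1.32). Epha5, an ephrin receptor, was at 196 against 81.9 CPM (1.25), and Tenm3, a teneurin adhesion molecule, at 130 against 57.9 CPM (1.16). Scrg1, a small secreted protein, was seen in 47.3% against 22.7% of cells, at 317 against 141 CPM (1.16). Nmnat2, an NAD-synthesising enzyme, was at 104 against 47.7 CPM (1.11). Over 14 alternatives, each of these 10 genes kept a log2 ratio above 0, the lowest being 0.87 for Nmnat2. The alternatives that change only the CPM floor or the CPM added to each side could not change a sign.

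Several of these genes stood higher with each further program gene, and others less evenly. Gng11 went from 31.4 CPM in cells with none of the 6 genes through 46.3, 61.7, 96.9, 141 and 177 CPM to 242 CPM in cells with all 6. Scrg1 went from 97.7 to 443 CPM and Stk32a from 34.2 to 207 CPM, each higher at every step. Slit2 went from 12.1 CPM to 87.6 CPM in cells with 5 genes and 78.6 CPM in those with 6. It fell from 52.1 CPM in cells with 3 genes to 44.8 CPM in those with 4. Epha5, Tenm3, Nmnat2 and A730020M07Rik did not follow every step. A730020M07Rik stood at 56.3 CPM in cells with 5 genes and 23.3 CPM in those with 6. Olig1, named after its values were seen, went from 132 CPM through 177, 256, 288, 386 and 492 CPM to 504 CPM. Grm8 and Gabbr2 ran the other way, from 70.6 to 2.91 CPM (0 CPM in cells with 5 genes) and from 172 to 5.83 CPM. In the 58 cells with all 6 genes, the levels of Grm8, Gabbr2 and A730020M07Rik rest on few UMIs.

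**Figure D2:**
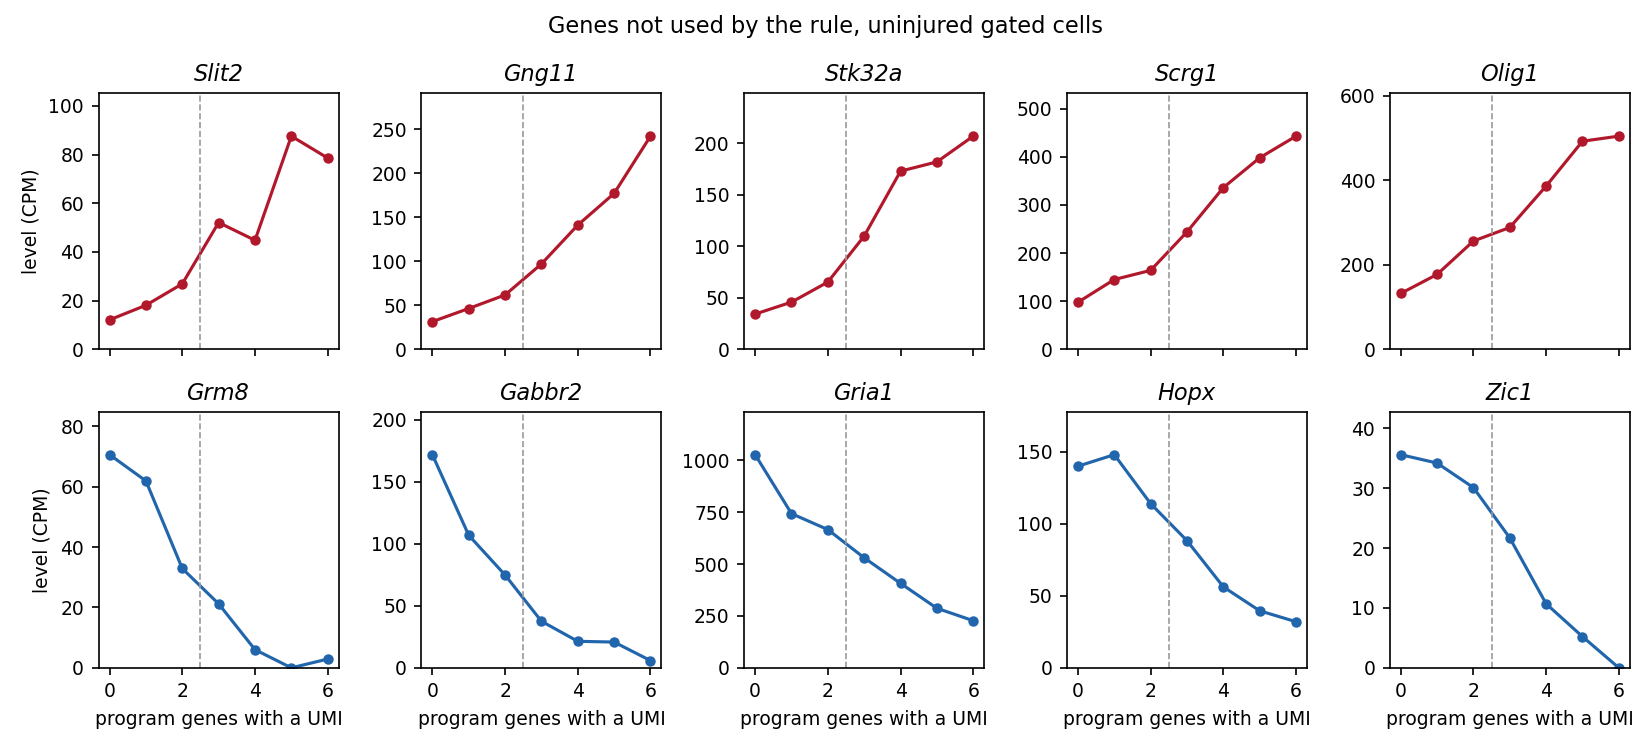
Levels (CPM of summed cells) of 10 genes that the rule did not use, by the number of program genes with a UMI in a cell (0 to 6; 576, 648, 612, 492, 330, 182 and 58 cells); the dashed line marks the rule, with program astrocytes to its right. Red genes were called higher and blue genes lower in program astrocytes, and Gng11 runs from 31.4 to 242 CPM while Gabbr2 runs from 172 to 5.83 CPM. Low levels in the 58 cells rest on few UMIs.

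The 10 lowest ratios began with 4 haemoglobin genes, and these came from 1 cell. One of the remaining astrocytes held 2727 of the 2729 Hbb-bs UMIs of that group. Once it was left out, Hbb-bs had a log2 ratio of 1.07 and Hba-a1 one of -0.35, and 93 genes were higher and 114 lower of 6781. Grm8, a metabotropic glutamate receptor, stood at 11.1 CPM in program astrocytes and 52.7 CPM in the remaining astrocytes (log2 ratio -2.15). The 54 UMIs of Grm8 in program astrocytes lay in 25 cells, of which 5 held 55.6%. Gabbr2, a subunit of the GABA B receptor, stood at 27.1 against 111 CPM (-1.99) and was seen in 4.27% against 16.9% of cells at 2000 UMIs. Nnat, a small membrane protein, stood at 39.6 against 117 CPM (-1.53), with 38.9% and 37.4% of its UMIs in 5 cells of each group. Ptchd4 was at 20.7 against 58.4 CPM (-1.45), Calcrl, a receptor of the calcitonin family, at 11.7 against 30.8 CPM (-1.33) and the sialyltransferase St6galnac3 at 11.3 against 29.8 CPM (-1.32). Dok6, Slc30a10, 2610307P16Rik and Igfbp5 completed the 10 lowest without the haemoglobin-rich cell, with log2 ratios of -1.30, -1.31, -1.29 and -1.27 over all cells.

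Of 15 tested identity genes of astrocytes, 0 were called in either direction, near the background of 1.41% higher and 1.75% lower, with a median log2 ratio of 0.12 against -0.00 over all genes. Cldn10 had a log2 ratio of 0.56 and Atp1b2 of 0.44, both short of 1.5-fold, while Slc1a3, a glutamate transporter, stood at 218 against 313 CPM (-0.52) and Glul, the glutamine synthetase, at 494 against 687 CPM (-0.47). Of 13 grey matter astrocyte genes, 0 were higher and 3 lower, beside 1.41% and 1.75% of all genes, with a median log2 ratio of 0.01 and 7 of 13 above 0. Gria1, an AMPA receptor subunit, stood at 423 against 784 CPM (-0.89), Grm3, a metabotropic receptor, at 69.4 against 128 CPM (-0.87), and Shisa9, an AMPA receptor auxiliary subunit, at 73.9 against 164 CPM (-1.14). Others of the list did not share this direction, among them Gria2 (0.01) and the amino acid transporter Slc7a10 (0.54). Of the white matter list, 3 genes were tested and 0 called. Vim, an intermediate filament gene of that list, was under the 20 CPM floor and stood at 3.70 CPM in program astrocytes and 20.6 CPM in the remaining astrocytes. The 115 Vim UMIs of the remaining astrocytes lay in 28 cells, of which 5 held 60.0%, and the 18 of program astrocytes in 8 cells. Synm, another filament gene of the list under the floor, stood at 3.70 against 4.66 CPM, from 18 and 26 UMIs. Gfap was at 0 by the gate.

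The list of dorsoventral patterning genes holds both dorsal and ventral factors, so opposite shifts would cancel in its median. Of 8 tested, 1 was higher and 2 lower, beside 1.41% and 1.75% of all genes, with a median log2 ratio of -0.02. Olig2, a factor of the ventral progenitor domains, stood at 132 CPM in program astrocytes and 78.0 CPM in the remaining astrocytes (0.75). Olig1, its neighbour in the genome, stood at 374 against 197 CPM (0.92) and was seen in 47.5% against 28.8% of cells at 2000 UMIs. Zic1 and Pax3, factors of the dorsal cord, were lower, at 13.6 against 33.0 CPM (-1.22) and 58.9 against 105 CPM (-0.82). Nkx6-1, a ventral factor, was under the floor and stood at 24.8 CPM from 121 UMIs against 7.71 CPM from 43 UMIs, a ratio of 3.22 (2.26 to 4.68). Sema3a, like Nkx6-1 under the floor and named after its values were seen, stood at 5.54 against 1.79 CPM from 27 and 10 UMIs. Further ventral factors under the floor were not higher: Nkx2-2 stood at 19.1 against 20.1 CPM and Nkx6-2 at 1.23 against 2.33 CPM. Msx1, a dorsal factor under the floor, stood at 9.85 against 8.78 CPM. Other genes of the list were close to even: Pax6 had a log2 ratio of -0.11, Irx5 of 0.06, Dbx2 of 0.15 and Reln of -0.27. No position in the cord was recorded for any cell.

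In the pathways of the program genes themselves, few genes were tested. Over all genes 1.41% were called higher and 1.75% lower, so a count of 0 is near the background share of calls. Of 12 tested glucocorticoid genes, 0 were called, with a median log2 ratio of 0.02. The glucocorticoid receptor Nr3c1 stood at 239 against 246 CPM, and its target Tsc22d3 at 284 against 229 CPM (0.31). Hsd11b2, the enzyme of the reverse reaction, was at 0.205 against 0.538 CPM. Of 6 tested genes of the insulin-like growth factor (IGF) system, 2 were higher and 1 lower, beside these shares. Htra1, a protease that cleaves IGF-binding proteins, stood at 1914 against 1242 CPM (0.62) and Igfbp4 at 62.2 against 35.8 CPM (0.78), while Igfbp5 stood at 11.1 against 28.1 CPM. The receptor Igf1r stood at 216 against 262 CPM (-0.28). Of 2 tested chitinase family genes, 6 carbonic anhydrase and bicarbonate transport genes and 2 genes of Gpr37 signalling, 0 were called. Gpr37l1, the closest relative of Gpr37, stood at 2525 against 1865 CPM (0.44), and Psap, the precursor of its proposed ligand, at 655 against 637 CPM (0.04). C1q and TNF related genes other than C1qtnf4 were all under the floor.

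The counts of the next lists stand beside 1.41% of all genes called higher and 1.75% called lower. Among signalling lists, Id2 was higher (738 against 458 CPM, 0.69) and Id4 and Hopx lower (-0.83 and -1.02) of 12 Notch, Hes and Id genes. Of 11 FGF and ERK targets, 1 was higher, the phosphatase Dusp6 at 37.0 against 19.2 CPM (0.91). Of 5 immediate early and heat shock genes, Dusp1 was higher (0.69) and Fos lower, at 16.8 against 37.3 CPM (-1.10). Of the 208 Fos UMIs in the remaining astrocytes, 46 lay in 1 cell and 53.4% in 5 cells, and Fos was seen in 3.77% of program astrocytes and 3.43% of the remaining astrocytes. Of 13 genes of glutamate, GABA and glycine handling, 0 were higher and 1 lower, the cystine transporter Slc7a11 (-0.71). Of 16 cholesterol and lipid genes 0 were called. The 1 tested reactive astrocyte gene was not called. Pdgfrb (-0.60) of the mural list and Meg3 (-0.97) of the neuron list were lower.

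Clusters made without the 6 genes held program astrocytes very unevenly. The 2898 cells fell into 6 clusters on 2000 variable genes from which the 6 were left out. A cluster of 607 cells led by Stk32a, Gng11 and Epha5 held 494 program astrocytes, 81.4% of its cells (78.1 to 84.4%) and 46.5% of all program astrocytes. In it Hsd11b1 stood at 538 CPM and Igfbp2 at 550 CPM. A cluster of 932 cells led by Grm8, Ptchd4 and Gabbr2, of near median depth (3733 against 4005 UMIs), held program astrocytes as 23.9% of its cells (21.2 to 26.8%), with Hsd11b1 at 151 CPM and Igfbp2 at 137 CPM. The lowest share, 14.5%, was in 544 cells led by Taco1 and mt-Nd6, with a median of only 1880 UMIs. A cluster of 48 cells with a median of 1344 UMIs held program astrocytes as 14.6% of its cells (6.07 to 27.8%). Hsd11b1 stood there at 353 CPM and Igfbp2 at 227 CPM, above the cluster led by Grm8. The part of depth in these shares was not tested. The other program astrocytes, 255 of them in a cluster of 754 cells, lay outside the leading cluster, so the rule and the clusters did not coincide. Hbb-bs and Hba-a1, the leading genes of that cluster of 754 cells, came almost wholly from the 1 haemoglobin-rich cell.

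**Figure D3:**
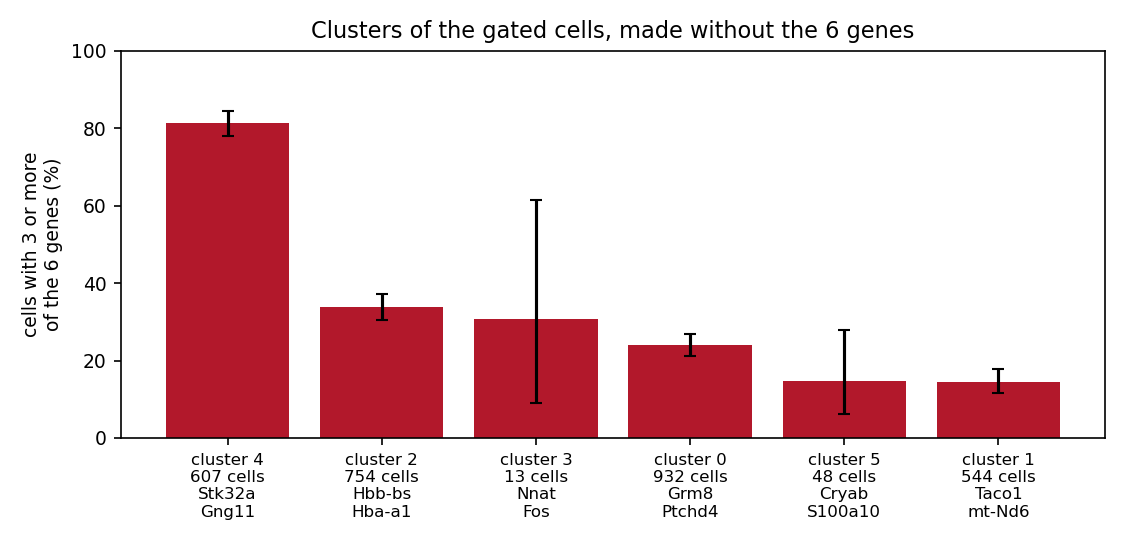
Share of program astrocytes in each of 6 clusters of the gated uninjured cells, clustered without the 6 program genes, with 95% Clopper-Pearson intervals. Labels give the cluster, its cells and its 2 leading genes. Hbb-bs and Hba-a1, which lead the cluster of 754 cells, come almost wholly from 1 cell. The cluster led by Stk32a and Gng11 stands at 81.4%, and the others at 14.5 to 33.8%. Median depth differed between clusters, from 1344 to 5369 UMIs.

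The injured library, which the rule did not use, held the program in few astrocytes. Gfap marks reactive astrocytes and was seen in 80.4% of gated injured cells at 2000 UMIs against 9.75% of uninjured ones, so the condition on Gfap was dropped for this comparison. With 0 Gfap UMIs required, the injured gate kept 38 cells, of which 0 held 3 program genes, which allows up to 9.25% (upper 95% Clopper-Pearson limit). Without that condition, 71 of 392 injured cells held 3 or more of the 6 genes (18.1%, 14.4 to 22.3%), against 1324 of 3465 uninjured cells (38.2%, 36.6 to 39.9%). The injured cells were deeper, with a median of 5368 against 3405 UMIs. At 2000 UMIs, 18 of 331 injured cells held 3 program genes (5.44%) and 597 of 2809 uninjured cells did (21.3%). Injury, library and the sex of the animals cannot be told apart with 1 library per condition. Among male-scored cells alone, 37 of 146 injured cells (25.3%, 18.5 to 33.2%) and 1029 of 2381 uninjured cells (43.2%, 41.2 to 45.2%) held 3 or more program genes, at medians of 8603 and 3847 UMIs.

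The 6 genes differed in how far injured astrocytes departed from uninjured ones. Hsd11b1 stood at 18.7 CPM in injured and 273 CPM in uninjured astrocytes, a ratio of 0.0686 (0.0517 to 0.0893). Car14 stood at 36.4 against 254 CPM (0.143), C1qtnf4 at 11.0 against 53.4 CPM (0.207) and Gpr37 at 40.4 against 111 CPM (0.364). Chil1 was at 63.2 against 119 CPM (0.529, 0.452 to 0.615). Igfbp2 alone of the 6 was higher, at 320 against 262 CPM (1.22, 1.13 to 1.31), while its share of cells at 2000 UMIs was 33.8% against 32.6%, with intervals that overlapped. Among male-scored cells the ratios were 0.0618 for Hsd11b1, 0.183 for Car14, 0.175 for C1qtnf4, 0.393 for Gpr37, 0.658 for Chil1 and 1.24 for Igfbp2, each on the same side of 1. Gfap stood at 2074 against 63.2 CPM.

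**Figure D4:**
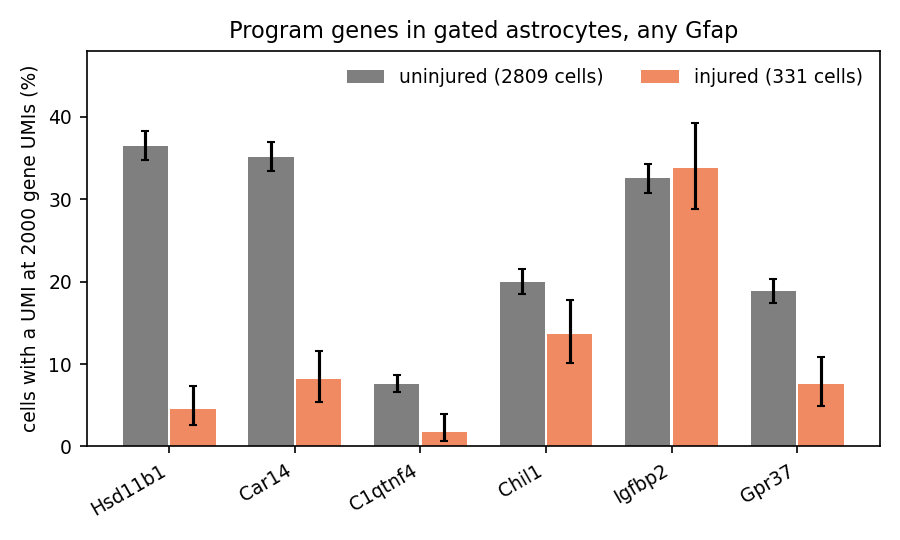
Share of gated astrocytes, at any Gfap level, with a UMI of each program gene after thinning to 2000 gene UMIs, in the uninjured library (2809 cells, grey) and the injured library (331 cells, orange), with 95% Clopper-Pearson intervals. Hsd11b1 stands at 36.5% and 4.53%, and Igfbp2 at 32.6% and 33.8%.

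Within the injured library, the genes that went with the program were in part those of the uninjured library. C1qtnf4, itself a program gene, stood at 12.9 CPM in injured cells with 3 or more program genes and 10.5 CPM in the others. Its ratio of 1.22 (0.476 to 2.79) rests on 8 and 25 UMIs, and the interval includes no change. The other program genes, which helped choose the cells, were 6.06-fold (Chil1) to 13.5-fold (Car14) higher. Of the 10 highest genes, 7 were also higher in the 71 injured cells with 3 or more program genes than in the 321 others, 5 of them with intervals above 1. Scrg1 stood at 540 against 113 CPM (log2 ratio 2.25), Hpgd at 389 against 114 CPM (1.76), Stk32a at 259 against 114 CPM (1.17) and Gng11 at 174 against 98.3 CPM (0.81). Of the 10 lowest without the haemoglobin-rich cell, 7 were lower, among them Grm8 at 24.1 against 58.6 CPM (-1.25) and Nnat at 219 against 1535 CPM (-2.81). Over all calls, 65 of the 96 higher genes and 70 of the 119 lower genes kept their side, beside 3573 of 6788 genes above 0 in injured cells. Olig1 was at 307 against 121 CPM there (1.33), and Olig2 at 27.3 against 28.7 CPM. Pax3, lower in uninjured program astrocytes, was on the other side here, at 59.5 against 28.7 CPM (2.07-fold, 1.35 to 3.14), and Nkx6-1 stood at 22.5 against 35.4 CPM (0.635-fold, 0.333 to 1.13). In these injured cells the astrocyte genes of the gate were also higher. Aqp4 stood at 3118 against 1074 CPM (2.90-fold) and Slc1a2 at 4208 against 1880 CPM (2.24-fold). The injured cells with the program were also deeper (median 8152 against 4949 UMIs), and the part of depth in these ratios was not tested.

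The AAV reporters were read as measures that the rule did not use. The paper reports that pooled packaging often joined a barcode to another enhancer, though correct pairs were likelier to be detected. A UMI below is thus a count of a barcode and need not come from the enhancer of that name. Barcodes were amplified apart from the expression library, whose gene UMIs are the denominator here. Of the 23 enhancers, A5 was the only one with more than 1 UMI in the gated cells, with 319 UMIs in program astrocytes and 296 in the remaining astrocytes. Per 1000000 gene UMIs this was 65.5 against 53.1, a ratio of 1.23 (1.05 to 1.45). It did not follow the number of program genes, with 45.6, 55.4, 55.7, 78.6, 58.2, 55.3 and 46.6 per 1000000 in cells with 0 to 6 genes. With 4 or more genes as the rule, the ratio was 0.930 (0.770 to 1.12), on the other side of 1. A UMI of A5 was seen in 23.9% of program astrocytes and 14.5% of the remaining astrocytes, and in 10.7% and 10.2% at 2000 UMIs, where the interval of the A5 ratio, 0.895 to 1.48, included 1. M16 gave 1 UMI in the remaining astrocytes, and the other enhancers 0 UMIs. The tdTomato transcript, which labelled the sorted cells, stood at 425 against 388 CPM, a ratio of 1.10 (1.03 to 1.16).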

How the data were processed

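UMI counts per gene and cell came from the matrices that the authors deposited (Chromium 3' v3.1; mm10; Cell Ranger 7.1.0 in the file header and 8.0.1 in the submitters' processing notes). They hold raw counts of called cells, with no normalisation by the authors, and 32287 gene features with 23 enhancer features. The uninjured library held 15543460 gene UMIs in 4159 cells and the injured library 11817725 in 919. The cells and gene lists were chosen with earlier results of these data known. UMIs were summed over cells (numpy 2.4.6, pandas 2.3.3); CPM ratios have exact conditional binomial intervals and shares Clopper-Pearson intervals (scipy 1.17.1). No doublets were removed beyond the gate. Gated cells were clustered with scanpy 1.11.5 (15 components, 15 neighbours, Leiden resolution 0.5). Named genes were the 6 program genes, the 10 highest and 10 lowest ratios, called list genes and examples; Olig1, Nkx6-1 and Sema3a were added after their values were seen. The ratio script was tested on simulated data. Gene positions and names came from the files and from GENCODE for GRCm38. No columns were left unmapped.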

Additional observations from a re-analysis of the deposited data

Results flagged for a closer look

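Among the 10 highest and 10 lowest genes (with and without the haemoglobin-rich cell), for 5 genes the ratio between cells with 3 or more program genes and the other gated cells lay on 1 side of no change in the uninjured library and on the other side in the injured library, each with a 95% interval that excluded no change. The difference between the libraries was not tested, since each condition is 1 library. Over all calls the same held for 14 of the 96 higher and 18 of the 119 lower genes, among them Dusp6, Dusp1, Pax3, Gria1, Grm3 and Shisa9. Beside these counts, of all 6788 tested genes the injured interval lay below no change for 1266 and above it for 1580. Reversals among the calls were thus no more common than injured intervals on that side over all genes. Pmepa1 had a log2 ratio of 1.37 in uninjured and -0.88 in injured cells, from 44 and 310 UMIs in the injured groups. Tenm3 had 1.16 and -2.46, from 51 and 1083 injured UMIs. Epha5 had 1.25 and -0.39, with an injured ratio of 0.760 (0.577 to 0.989). Ptchd4 had -1.45 and 1.42, from 34 and 47 injured UMIs. Slc30a10 had -1.31 and 1.07, from 32 and 57 injured UMIs.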

How the results depend on the processing

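No paired analysis was possible because the series holds 1 expression library for either condition. The share of program astrocytes, 36.6%, was 57.8% with 2 genes needed, 19.7% with 4, 43.7% among cells of at least 2000 UMIs and 21.6% after thinning; without the Gfap condition, with 0 neuron UMIs or with no upper UMI limit it was 38.2%, 35.1% and 36.6%. The 96 higher and 119 lower genes became 40 and 46 at a floor of 50 CPM, 362 and 571 with no floor, 46 and 77 with 10 CPM added, 642 and 279 against cells with none of the 6 genes, and 163 and 234 with count splitting. Higher genes were 159 with 2 genes needed, 192 with depth weighting and 157 as means of per cell shares (the last 2 with the unweighted intervals). In the other alternatives both counts stayed within 1.5 times, and the median over all genes lay between -0.02 and 0.01 throughout. Of the 215 calls, 212 kept their sign against cells with none of the 6 genes, 213 among male-scored cells (a Y-linked UMI and none of Xist) and 212 without the haemoglobin-rich cell, a setting chosen after seeing the data, and 215 in every other alternative. A change of the CPM floor or of the CPM added to each side cannot change a sign. Of the genes named, the ones that changed sign were Hbb-bs, Hba-a2 and Hbb-bt. Without that cell they stood at 1.07, 0.26 and 0.03 and against cells with none of the 6 genes at 1.51, 0.50 and 0.27, and among male-scored cells Hbb-bs stood at 1.00 and Hba-a2 at 0.26. Ratios of the program genes under the rule, by the other 5 genes and by count splitting were 3.19, 2.13 and 2.15 for Hsd11b1, 3.15, 1.95 and 1.91 for Car14, 7.19, 3.42 and 3.88 for C1qtnf4, 3.74, 1.90 and 1.98 for Chil1, 4.30, 2.57 and 2.82 for Igfbp2 and 3.74, 1.82 and 1.5 for Gpr37. The A5 ratio of 1.23 was 0.930 with 4 genes needed, its interval after thinning was 0.895 to 1.48, and the tdTomato ratio of 1.10 was 1.18 after thinning. Among male-scored cells of both libraries, added after seeing the data, the injured over uninjured ratio was 0.183 in place of 0.143 for Car14 and 0.658 in place of 0.529 for Chil1. At a clustering resolution of 1.0 the highest share of program astrocytes was 85.7%. The cause of these shifts was not tested. Leaving out a replicate was not possible with 1 library per condition.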
